A study of Homo sapiens with 6 samples.

Results

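The clustered protocadherins were taken as every protein-coding gene of the count table whose symbol begins with PCDHA, PCDHB or PCDHG followed by a digit, A, B or C, which gave 53 of 60504 genes. All 53 lie on the plus strand of chromosome 5 in the GENCODE 44 annotation of GRCh38. The alpha cluster held 15 genes between 140786136 and 141012347, the beta cluster 16 genes between 141051374 and 141249365, and the gamma cluster 22 genes between 141330514 and 141512977. RNA-seq had been performed on SK-MEL-28 cells, an established human melanoma line, to ask how added HDAC8, a class I histone deacetylase, changed gene expression. The 3 libraries labelled EV came from cells given an empty vector plasmid (genotype: control), and the 3 labelled HDAC8 from cells given a plasmid expressing HDAC8 (genotype: forced HDAC8 expression). Both kinds of transfected cells had been kept in hygromycin, and neither the labels nor the Methods say whether they were clones or mixed populations.

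The libraries held 20850021 to 29822903 counts in all. A floor of 3 counts in a library corresponded to 0.102 to 0.148 CPM (the usual library-size scaling of counts, with TMM factors). The 8 melanocytic markers summed to 6470 to 6859 CPM under the EV label and 7492 to 8016 CPM under the HDAC8 label, a sum made up mostly of PMEL. They moved apart. TYRP1 was called higher, at 5, 12 and 9 counts against 46, 31 and 19, and would not have passed the filter on low counts on its EV-labelled libraries alone. DCT was called lower (233 ± 10.7 against 68.3 ± 2.07 CPM, SD, n = 3 each). This was 1 higher and 1 lower call of 8 tested markers, beside 7.52% of all tested genes. TYR, PMEL and SOX10 had log2 fold changes of 0.44, 0.34 and 0.23. S100B, MITF and MLANA had -0.28, -0.14 and -0.077, and only MLANA of these uncalled markers missed the adjusted threshold. The 6 fibroblast markers summed to 38.9 to 40.9 and 51.9 to 56.1 CPM, mostly LUM (36.7 ± 1.70 and 49.7 ± 2.27 CPM, SD, n = 3 each). LUM had a log2 fold change of 0.44, below the fold threshold. PDGFRA (0.67) and COL1A1 (-0.50) missed the adjusted threshold, and COL1A2, COL3A1 and DCN were not tested. The 4 keratinocyte markers summed to at most 0.203 CPM, the 3 endothelial markers to at most 3.70 and the 3 leukocyte markers to at most 2.60, with CD3E at 0 counts in every library. The 6 neuronal markers summed to 38.2 to 44.5 and 32.5 to 39.0 CPM. Of the 3 tested, 1 was called higher and 0 lower, beside 7.52% of all tested genes called either way. SNAP25, not tested, held 24, 6 and 14 counts against 6, 1 and 2, with no overlap in CPM. The called gene was SYT1, at 0.464 ± 0.205 CPM (SD, n = 3) in the EV-labelled libraries and at 4.75 ± 0.834 (SD, n = 3) with the HDAC8 label. It would not have passed the filter on low counts on its EV-labelled libraries alone. GAD1, which makes up most of the neuronal sum, was at 36.0 ± 2.86 and 26.7 ± 2.58 CPM (SD, n = 3 each). Its log2 fold change was -0.43 (edgeR quasi-likelihood adjusted p = 0.00456), and SLC17A7 had one of -0.20. The part of these marker levels in the protocadherin results was not tested. HDAC8 itself (ENSG00000147099) was at 16.6, 15.2 and 11.8 CPM in the EV-labelled libraries and at 14.2, 15.2 and 13.5 CPM with the HDAC8 label. The ranges overlapped, with a log2 fold change of -0.024 (SE, the standard error of the log2 fold change, 0.13; edgeR quasi-likelihood adjusted p = 0.924), and each direction below is that of the library labels.

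Protocadherins are cadherin-type adhesion proteins of the plasma membrane, and the clustered ones are best known from neurons, where each cell expresses its own small set and uses matching isoforms to tell its own branches from those of other cells. In the alpha and gamma clusters, each gene has a large variable exon with its own promoter that encodes the extracellular, transmembrane and membrane-near parts, and this exon is spliced to constant exons at the end of the cluster that encode a shared cytoplasmic tail. Beta genes have no constant exons. Promoter choice involves the DNA-binding protein CTCF and the cohesin ring, whose subunit SMC3 is a known substrate of HDAC8, and the isoforms named C are expressed more constitutively in neurons than the others. Of the exon bases annotated to a gamma gene, 27.5% to 64.4% were also annotated to another clustered protocadherin, against 19.2% to 56.6% in the alpha cluster and 0% in the beta cluster. RSEM divides reads that match several genes between them. Of the values above 0, 77.3% were not whole numbers in the gamma cluster, 27.3% in the alpha cluster, 29.8% in the beta cluster and 23.4% over all genes. The division is uncertain for a single isoform, and the sum over a cluster does not depend on how reads were divided within it.

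RefSeq promoter windows (GRCh38.p14, 250 bases before to 50 after the annotated start, plus strand) were found for 47 of the 53 genes. Windows are shown for PCDHGC3 (chr5:141475716-141476015), the gene with the highest level and the only one called higher, and for its C-type neighbour PCDHGC4 (chr5:141484780-141485079). PCDHGB7 (chr5:141417427-141417726), the gene called lower, and PCDHGB5 (chr5:141397697-141397996), the second in level, are shown for comparison. Capitals mark matches to the letters GNGNGCCGCNGT, a stretch of 12 bases with 9 positions identical in these 4 windows (N is any base). It is the first of 4 overlapping stretches that tie at 9 identical positions.
PCDHGC3: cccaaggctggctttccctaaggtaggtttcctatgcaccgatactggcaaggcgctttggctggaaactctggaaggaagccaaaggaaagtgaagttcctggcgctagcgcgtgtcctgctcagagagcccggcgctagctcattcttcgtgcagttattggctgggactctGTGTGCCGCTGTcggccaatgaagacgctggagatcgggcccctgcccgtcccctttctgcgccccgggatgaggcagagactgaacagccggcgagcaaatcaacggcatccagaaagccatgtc
PCDHGC4: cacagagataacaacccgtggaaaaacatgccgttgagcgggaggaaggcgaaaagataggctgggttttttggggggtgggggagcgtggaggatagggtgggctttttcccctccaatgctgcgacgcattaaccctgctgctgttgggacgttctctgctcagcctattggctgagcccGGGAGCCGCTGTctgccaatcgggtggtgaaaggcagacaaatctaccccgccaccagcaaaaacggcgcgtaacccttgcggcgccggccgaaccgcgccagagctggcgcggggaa
PCDHGB7: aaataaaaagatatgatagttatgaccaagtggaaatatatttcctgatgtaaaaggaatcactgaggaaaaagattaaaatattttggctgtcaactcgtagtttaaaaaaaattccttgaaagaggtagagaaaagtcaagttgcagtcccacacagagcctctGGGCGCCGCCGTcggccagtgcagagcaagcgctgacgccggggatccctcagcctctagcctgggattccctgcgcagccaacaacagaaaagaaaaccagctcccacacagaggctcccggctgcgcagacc
PCDHGB5: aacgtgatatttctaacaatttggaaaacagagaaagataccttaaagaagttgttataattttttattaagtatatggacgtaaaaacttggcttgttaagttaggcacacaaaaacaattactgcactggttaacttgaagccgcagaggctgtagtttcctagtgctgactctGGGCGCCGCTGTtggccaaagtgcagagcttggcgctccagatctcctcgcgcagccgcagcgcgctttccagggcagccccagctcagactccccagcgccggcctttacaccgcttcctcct
The marked stretch began 76, 68, 84 and 74 bases before the annotated start in PCDHGC3, PCDHGC4, PCDHGB7 and PCDHGB5. On either strand it was found in 10 of the 47 windows, namely these 4 and those of PCDHGA1, PCDHGA9, PCDHGA10, PCDHGB1, PCDHGB4 and PCDHGB6, and in 0.667% of all 27305 promoter windows in the table. Because it was chosen from member sequences, its count among members is a description, and over the 4 tied stretches the count ran from 6 to 10 of the 47 windows and the share of all windows from 0.234% to 0.828%. CGCT, the core letters of the conserved element of clustered protocadherin promoters, was present on either strand in 46 of 47 windows and in 69.4% of all windows, and it overlaps the marked stretch where N is T. A match describes letters and not a bound site. The core letters of the CTCF motif, searched on both strands, matched 1 member window (PCDHB9) against 10.6% of all windows. Only exact matches were counted, so a window without one may still hold a variant of the motif. The 4 C-type windows in the table had a GC content of 59.0% to 66.0% and held 15 to 27 CpG dinucleotides, whereas the other 43 member windows had 32.3% to 51.3% GC and 2 to 16 CpG dinucleotides.

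Expression of the clustered protocadherins in SK-MEL-28 cells was dominated by PCDHGC3. Per kilobase of annotated exons, PCDHGC3 was at 11.9 ± 1.29 CPM per kilobase (SD, n = 3) in the EV-labelled libraries and at 20.6 ± 0.747 (SD, n = 3) with the HDAC8 label. The next level per kilobase was that of PCDHGB5, at 0.938 ± 0.129 and 0.835 ± 0.265 CPM per kilobase, followed by PCDHGA3 (0.638 ± 0.345 and 0.706 ± 0.183), PCDHGA12 (0.594 ± 0.120 and 0.568 ± 0.0114), PCDHGA7 (0.625 ± 0.0740 and 0.487 ± 0.139) and PCDHGB2 (0.513 ± 0.311 and 0.512 ± 0.0306). From PCDHGB5 to PCDHGB2, neighbours in this order did not differ beyond their spread, and only the step from PCDHGC3 to PCDHGB5 was far outside it. The other 16 gamma genes had mean levels between 0.0617 and 0.355 CPM per kilobase, beta genes between 0.00270 and 0.252, and no alpha gene had a mean above 0.0274.

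PCDHGC3 (ENSG00000240184, chromosome 5 from 141475947 to 141512977) is the first of the C-type gamma isoforms at the end of the array. It held 1519, 1261 and 1640 counts in the EV-labelled libraries and 3202, 2357 and 2554 counts with the HDAC8 label. In CPM these were 70.5, 57.0 and 66.7 against 109, 116 and 110, so every library labelled HDAC8 lay above every library labelled EV. PCDHGC3 rose by a log2 fold change of 0.79 (SE 0.075, edgeR quasi-likelihood adjusted p = 1.35e-05), a fold of 1.72. It was called higher in each of the 12 alternative fits, with log2 fold changes between 0.70 and 0.85. Of its 150-base stretches of transcript, 34.7% also occur in another gene of the family, so part of its count rests on how RSEM divided reads.

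The summed gamma level was nearly the same in the 3 libraries labelled EV, at 99.9, 99.1 and 101 CPM, and stood at 138, 147 and 145 CPM in the HDAC8-labelled libraries. The groups did not overlap, and the ratio of their means was 1.44. Without PCDHGC3, the sum of the other 21 gamma genes was 29.3, 42.1 and 34.2 CPM against 29.7, 31 and 34.9 CPM, and the groups overlapped with a ratio of 0.905. PCDHGC3 was left out after its values were seen, so a lower ratio without it follows from that choice. In these bulk samples, more cells with PCDHGC3 RNA and more of this RNA per cell cannot be told apart. Its share of the gamma counts was 70.6% (95% Wilson interval 68.7 to 72.5), 57.5% (55.4 to 59.6) and 66.1% (64.2 to 67.9) in the EV-labelled libraries. In those labelled HDAC8 it was 78.5% (77.3 to 79.8), 78.9% (77.4 to 80.4) and 75.9% (74.5 to 77.4), with intervals that cover counting error only. Within the EV-labelled libraries, the SD of the gamma sum was 0.942 CPM, whereas the SD was 6.99 CPM for PCDHGC3 and 6.44 CPM for the other 21 genes. The library with the lowest PCDHGC3 level, EV replicate 2, had the highest level of the other genes, and the part that the division of shared reads plays in this was not tested.

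**Figure D1:**
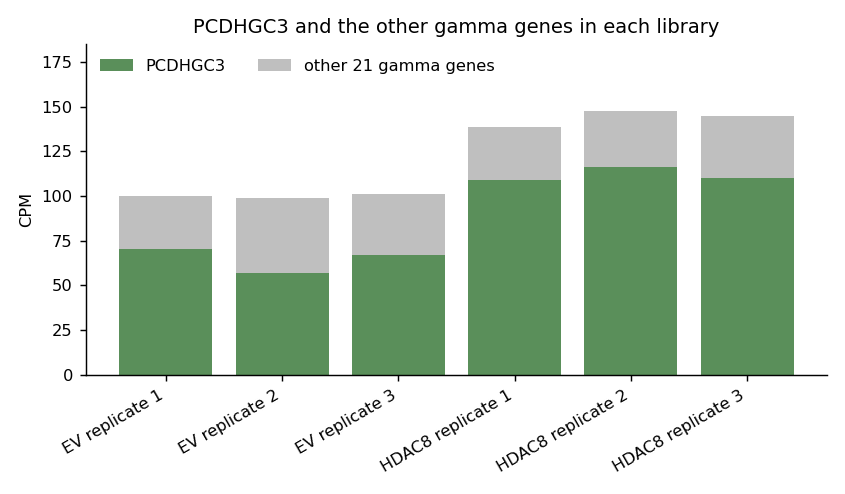
Stacked bars give the CPM (y axis) of PCDHGC3 (green) and the summed CPM of the other 21 gamma genes (grey) in each of the 6 libraries. Bar heights are near 100 CPM in the EV-labelled libraries and between 138 and 147 CPM with the HDAC8 label, and the green part makes up the difference.

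**Figure D2:**
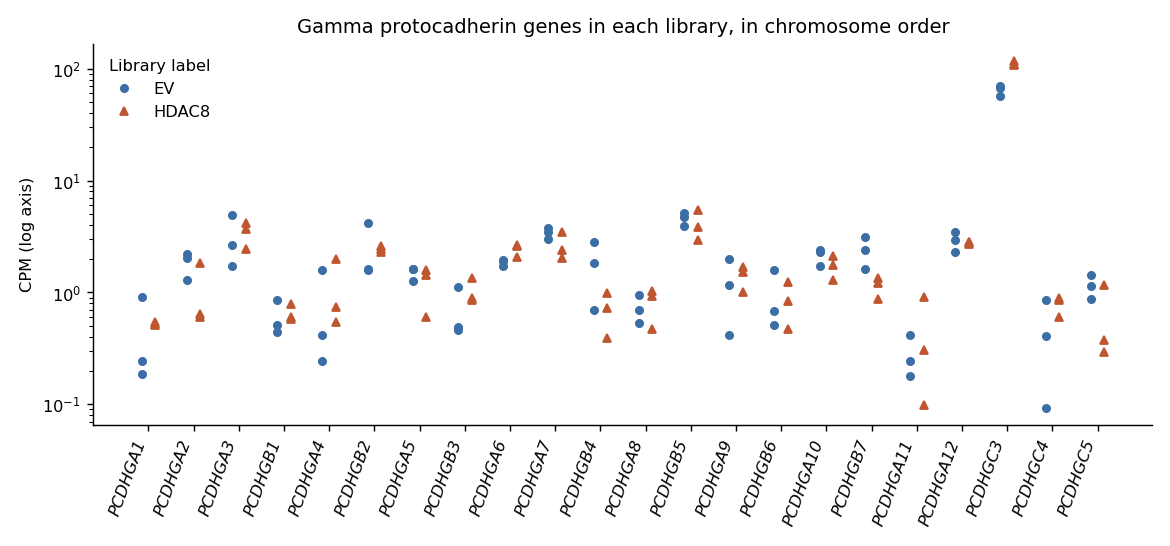
Each point is the CPM (log axis) of 1 gamma gene in 1 library, with genes in chromosome order, blue circles for EV and orange triangles for HDAC8 (n = 3 each). PCDHGC3 stands above all others, and for most other genes the symbols of both labels overlap.

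Of the 53 genes, 25 passed the filter on low counts and were tested, comprising 21 gamma, 4 beta and 0 alpha genes. With both thresholds (adjusted p below 0.05, log2 fold change beyond 0.58 either way), 1 was higher (PCDHGC3) and 1 lower (PCDHGB7) in the HDAC8-labelled libraries. This was 8% of the tested members against 7.52% of all tested genes (4.07% higher and 3.45% lower), a share near the background. The groups did not overlap in CPM for 4 tested members (PCDHB13, PCDHGA6, PCDHGB7 and PCDHGC3), against 38.0% of all tested genes. PCDHB13 passed the filter only through its EV-labelled libraries, so its direction is not independent of the filter. The median log2 fold change of the 25 tested members was -0.024, beside 0.0091 over all 16195 tested genes, and 12 of the 25 were positive. The filter bears on these signs. PCDHB5, PCDHGA1, PCDHGB1, PCDHGA4, PCDHGA9 and PCDHGC4, all positive, would not have passed it on their EV-labelled libraries alone. PCDHB13, PCDHGB4 and PCDHGC5, all negative, would not have passed it on their HDAC8-labelled libraries alone.

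PCDHGB7 (ENSG00000254122) encodes a B-type gamma isoform, and held 35, 53 and 77 counts in the EV-labelled libraries and 26, 27 and 28 with the HDAC8 label. In CPM these were 1.62, 2.39 and 3.13 against 0.883, 1.33 and 1.21, with no overlap. Its log2 fold change was -1.07 (SE 0.35, edgeR quasi-likelihood adjusted p = 0.0476), just under the threshold. The call was lost when any library other than EV replicate 1 was left out. The adjusted p then lay between 0.0663 (without HDAC8 replicate 3) and 0.220 (without EV replicate 3), and was 0.107 without EV replicate 2, 0.127 without HDAC8 replicate 1 and 0.0732 without HDAC8 replicate 2, each from edgeR.

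The remaining 19 tested gamma genes missed the adjusted threshold. PCDHGB5, next in level to PCDHGC3, held 101, 114 and 96 counts against 86, 78 and 127, with overlapping groups and a log2 fold change of -0.17 (SE 0.25). PCDHGA3 held 57, 110 and 42 counts against 108, 85 and 57, also overlapping (log2 fold change of 0.15, SE 0.36). The other C-type isoforms gave no call in either direction. PCDHGC4 had 2, 19 and 10 counts against 25, 18 and 14, and a log2 fold change of 0.78, near that of PCDHGC3 but with an SE of 0.62 (edgeR quasi-likelihood adjusted p = 0.423). PCDHGC5 had 19, 32 and 28 counts against 11, 6 and 27, and a log2 fold change of -0.92 (SE 0.53, edgeR quasi-likelihood adjusted p = 0.262). PCDHGB4 had the lowest log2 fold change of all tested members, -1.32 (SE 0.53), with 15, 63 and 45 counts against 29, 8 and 17, and an adjusted p of 0.0992 from edgeR's quasi-likelihood test. PCDHGB4 and PCDHGC5 would not have passed the filter on low counts on their HDAC8-labelled libraries alone. The same held for PCDHGC4 on its EV-labelled libraries alone, so the directions of these genes are not independent of the filter. PCDHGA11 did not pass the filter, with at most 21 counts. The SE was 0.25 to 0.68 in the 20 tested gamma genes other than PCDHGC3, against 0.075 for PCDHGC3 itself. By subtype, the 12 A-type genes summed to 20.2 ± 2.19 CPM (SD, n = 3) in the EV-labelled libraries and 19.6 ± 0.442 (SD, n = 3) with the HDAC8 label, and the 7 B-type genes to 13.5 ± 3.59 and 10.9 ± 1.93 CPM, both with overlapping groups.

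**Figure D3:**
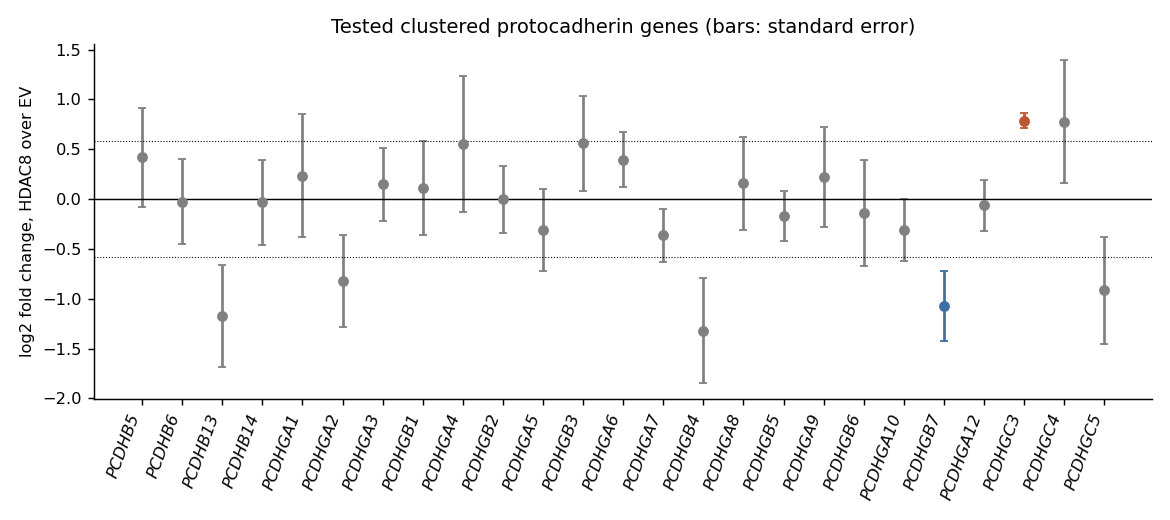
Points are log2 fold changes (HDAC8 over EV) of the 25 tested members in chromosome order, bars are standard errors, and dotted lines mark the fold threshold of 0.58. PCDHGC3 (orange, called higher) has the shortest bar, PCDHGB7 (blue) was called lower, and the grey members were not called.

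The beta cluster was expressed at a low level. Its 16 genes summed to 143, 128 and 169 counts in the EV-labelled libraries and to 165, 111 and 124 with the HDAC8 label, and no beta gene exceeded 36 counts in a library. In CPM the sums were 6.64, 5.78 and 6.88 against 5.60, 5.48 and 5.35, which did not overlap, with a ratio of means of 0.851. The highest beta gene in CPM was PCDHB14 (per kilobase it was PCDHB5, at 0.252 against 0.224 CPM per kilobase), with 24, 13 and 32 counts against 36, 17 and 20 and a log2 fold change of -0.033 (SE 0.43). PCDHB5 (17, 8 and 26 counts against 29, 12 and 32) had a log2 fold change of 0.42 (SE 0.50), PCDHB6 (17, 13 and 15 against 17, 14 and 16) one of -0.024 (SE 0.43), and both overlapped. PCDHB13 had 11, 15 and 31 counts against 9, 9 and 8, groups that did not overlap in CPM, and a log2 fold change of -1.17 (SE 0.52, edgeR quasi-likelihood adjusted p = 0.133). The other 12 beta genes were not tested, 5 of the 16 stayed under 10 counts in every library, and PCDHB1 was seen with 3 counts in 1 library. Among the untested genes only PCDHB15 did not overlap in CPM, with 10, 16 and 11 counts against 5, 7 and 4. Mean CPM was 0.545 against 0.229 for PCDHB15 and 0.817 against 0.365 for PCDHB13, and the groups overlapped for every other beta gene.

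The alpha cluster was at the edge of detection. Its 15 genes together held 10, 22 and 25 counts in the EV-labelled libraries and 34, 41 and 26 with the HDAC8 label, or 0.464, 0.994 and 1.02 CPM against 1.15, 2.02 and 1.12. The groups did not overlap and the ratio of means was 1.74, but HDAC8 replicate 3 and EV replicate 3 differed by 1 count. In CPM, PCDHA10 was the highest alpha gene, with 2, 2 and 12 counts against 6, 2 and 13, followed by PCDHA2 (1, 9 and 2 against 1, 6 and 3) and PCDHA8 (5, 2 and 0 against 6, 5 and 3). Per kilobase, PCDHA8 (0.0274) and PCDHA2 (0.0273) lay above PCDHA10 (0.0163 CPM per kilobase). In 13 of the 15 genes, every library held fewer than 10 counts, and PCDHA13 was at 0 counts in all 6 libraries, which allows a level of up to 0.102 to 0.148 CPM per library. Differences between single alpha genes were not detectable at this depth.

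**Figure D4:**
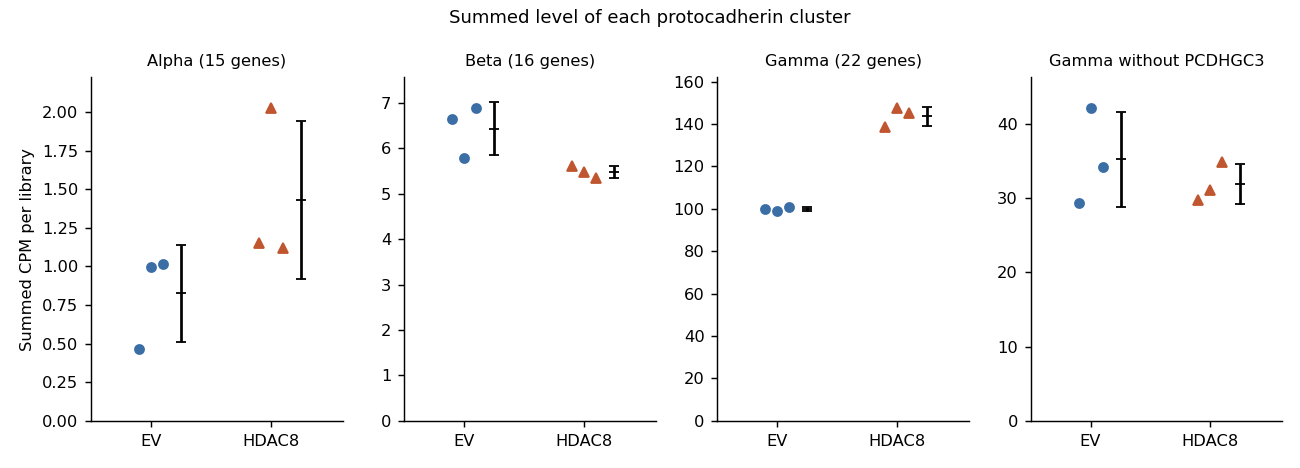
Points are summed CPM per library for each cluster and for the gamma cluster without PCDHGC3 (y axes start at 0 and differ between panels), and black bars are mean and SD (n = 3). The gamma sums separate near 100 and above 138 CPM. The groups overlap in the panel without PCDHGC3, a gene left out after its values were seen.

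Genes around the clusters were examined for a shift of the whole region. Within 500 kb of the first or last member lie 31 other protein-coding genes, of which 26 were tested, 0 were called higher and 2 lower, a share near the 7.52% of all tested genes, and their median log2 fold change was -0.067. DIAPH1, the gene immediately beyond the gamma cluster, encodes an actin-nucleating formin and gave -0.047 on the log2 scale (SE 0.043). TAF7, a subunit of the general transcription factor TFIID that lies between the beta and gamma clusters, was at 34.7 ± 2.33 and 46.3 ± 5.16 CPM (SD, n = 3 each), a log2 fold change of 0.42 below the fold threshold (edgeR quasi-likelihood adjusted p = 0.00526). ARAP3 and RELL2, beyond the gamma cluster, had log2 fold changes of -0.28 (edgeR quasi-likelihood adjusted p = 0.0056) and -0.33 (0.0118), also short of the fold threshold. The 2 lower genes were PCDH1, described with the non-clustered protocadherins, and EIF4EBP3. The latter passed the filter on low counts only through its EV-labelled libraries, so its direction in this count is not independent of the filter. EIF4EBP3 had 46, 20 and 20 counts against 10, 2 and 6 (log2 fold change of -2.39, SE 0.58) and shares exons with the read-through gene ANKHD1-EIF4EBP3, so its count is uncertain, and its call was lost without EV replicate 1 (adjusted p = 0.0991 from edgeR) and without HDAC8 replicate 2 (adjusted p = 0.0521 from edgeR).

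**Figure D5:**
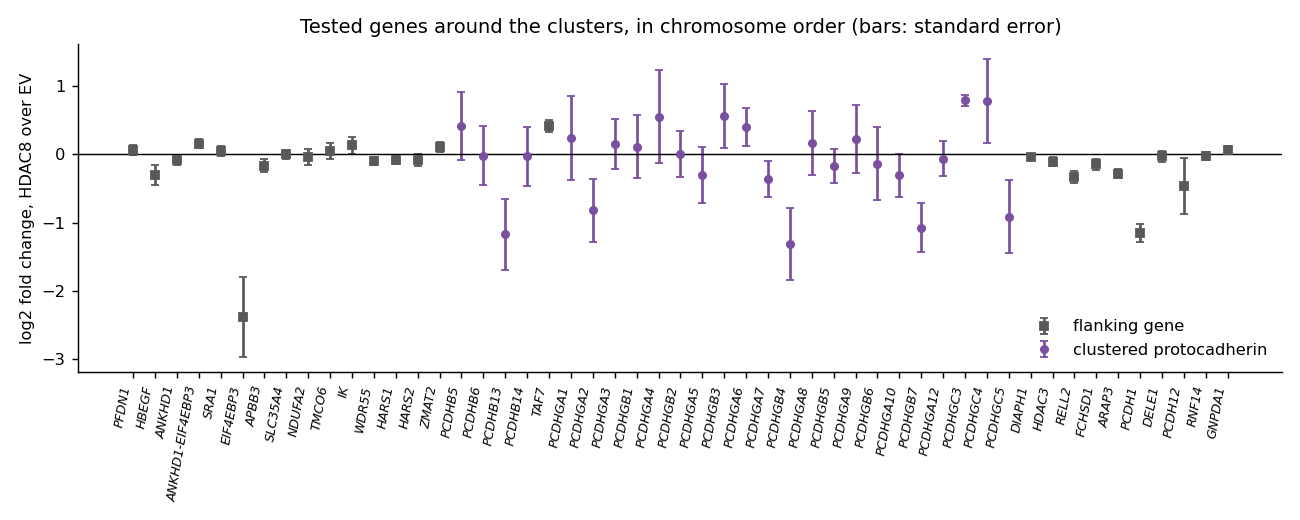
Log2 fold changes (HDAC8 over EV, bars are standard errors) of tested genes within 500 kb of the clusters are plotted in chromosome order, with flanking genes as grey squares and clustered protocadherins as purple circles. Most flanking genes lie near 0, and PCDHGC3 has the highest value among genes with a called change.

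A list of 34 genes, all of them tested, held regulators of clustered protocadherin choice and silencing beside general chromatin genes such as HDAC1 and EP300. None passed both thresholds by edgeR, and 11 had an adjusted p below 0.05, beside 22.7% of all tested genes by that rule alone. CTCF was at 79.7, 77.4 and 80.5 CPM in the EV-labelled libraries and at 89.0, 84.2 and 73.2 with the HDAC8 label, with overlapping groups and a log2 fold change of 0.052 (SE 0.071). The cohesin ring subunits SMC3 (log2 fold change of -0.022, SE 0.093) and RAD21 (-0.12, SE 0.056) and the silencing factors SMCHD1 (0.12, SE 0.060) and SETDB1 (0.15, SE 0.077) also missed the adjusted threshold. NIPBL, which loads cohesin onto DNA, was at 161, 182 and 167 CPM against 228, 233 and 209, a log2 fold change of 0.40 (SE 0.059, edgeR quasi-likelihood adjusted p = 0.000499). PDS5B, a cohesin-associated factor, was at 114, 120 and 111 CPM against 95, 87.8 and 80.5, a log2 fold change of -0.39 (SE 0.065). DNMT3B, a de novo DNA methyltransferase, was at 12.6, 12.1 and 11.5 CPM against 16.6, 18.5 and 17.2, a log2 fold change of 0.53 (SE 0.098). The groups did not overlap for NIPBL, PDS5B or DNMT3B, and each difference was smaller than the fold threshold. The other 8 genes with an adjusted p below 0.05 were SMC1A, ATRX, TET1 and TET2 with positive and STAG1, DNMT3A, TET3 and ESCO2 with negative log2 fold changes, between -0.40 and 0.27. Over the 12 alternative fits, the adjusted p stayed below 0.05 in all for NIPBL, PDS5B and DNMT3B. It did so in 11 for STAG1 and DNMT3A, 10 for TET2, 9 for ATRX and ESCO2, 7 for TET3, 6 for SMC1A and 3 for TET1.

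Of 15 genes for proteins that bind or cut protocadherins inside the cell, 14 were tested and 1 rose at both thresholds, a share near the 7.52% of all tested genes. This was FYN, a SRC-family tyrosine kinase, at 52.6, 57.2 and 56.4 CPM in the EV-labelled libraries and 95.8, 92.7 and 94.8 with the HDAC8 label (log2 fold change of 0.77, SE 0.057, edgeR quasi-likelihood adjusted p = 1.50e-06). PSEN2, a catalytic subunit of gamma-secretase, NCSTN, another subunit of that protease, and NCKAP1 and CYFIP1 of the WAVE actin-regulatory complex had positive log2 fold changes of 0.15 to 0.34 below the fold threshold, and ABI2 of the same complex one of -0.16, each with an adjusted p below 0.05 from edgeR. With FYN these were 6 of 14, beside 22.7% of all tested genes. Over the 12 alternative fits, the adjusted p stayed below 0.05 in all for FYN and PSEN2. It did so in 8 for NCSTN, NCKAP1 and ABI2, and in 4 for CYFIP1.

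The non-clustered protocadherins lie outside the arrays and have no shared constant exons with them. Of 12 listed genes, 6 were tested, 3 were higher and 1 was lower at both thresholds, beside the 7.52% of all tested genes. PCDH10, 1 of the higher genes, passed the filter on low counts only through its HDAC8-labelled libraries, so its direction in this count is not independent of the filter. PCDH7 held 1676, 1764 and 2035 counts against 4112, 3086 and 3607 and rose by a log2 fold change of 0.90 (SE 0.057, edgeR quasi-likelihood adjusted p = 3.92e-07). PCDH18 held 53, 57 and 44 counts against 149, 104 and 123 and rose by 1.18 on the log2 scale (SE 0.22). PCDH10 held only 2, 3 and 7 counts against 17, 20 and 18 (log2 fold change of 2.12, SE 0.58), and its call was lost without EV replicate 1, EV replicate 2, HDAC8 replicate 2 or HDAC8 replicate 3, with adjusted p from edgeR of 0.107, 0.0874, 0.101 and 0.0507. PCDH1, which lies beyond the gamma cluster on chromosome 5 from 141853090 to 141879246, fell from 338, 307 and 412 counts to 184, 145 and 174, a log2 fold change of -1.15 (SE 0.13, edgeR quasi-likelihood adjusted p = 4.49e-05). PCDH9 (log2 fold change of -0.18, SE 0.26) and PCDH12 (-0.47, SE 0.41) were not called.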

How the data were processed

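RNA-seq of SK-MEL-28 cells (3 libraries labelled EV, 3 labelled HDAC8) was used. The deposited values were estimated counts of each Ensembl gene, not normalized by the authors. Their Methods name Trimmomatic, STAR alignment to the transcriptome and RSEM, and the submitters' processing notes name GRCh38. The annotation release and whether counting used strand are not given in the sources used here. The labels name ribosomal RNA depletion and a directional library kit, the Methods a TruSeq kit. A deposited table of the authors' own log2 fold changes and p-values was not used. The groups were assigned from sample titles and column names. Nothing says that the replicates were separate transfections, so p-values measure the spread between these samples.

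Counts were rounded, and the whole table was fitted using edgeR 4.0.16 under R 4.3.3 (TMM, filterByExpr, glmQLFit, glmQLFTest, Benjamini-Hochberg adjustment). Calls needed an adjusted p below 0.05 and a log2 fold change beyond 0.58 either way. Standard errors are the absolute log2 fold change over the square root of F. No p was computed for cluster sums. Shared exons came from GENCODE 44, matched by Ensembl identifier, and promoters from RefSeq. Alternatives were DESeq2 1.42.0, upper-quartile scaling, other filters, unrounded counts, a replicate block and leaving out each library. Scripts were tested on simulated data. Values in each library were given for members past the adjusted threshold and for the 3 highest of each cluster, regulators and partners were named at an adjusted p below 0.05 (CTCF, RAD21, SMC3, SMCHD1 and SETDB1 always), and flanking genes if called. PCDHGC4, PCDHGC5, PCDHGB4, PCDHB13, TAF7, ARAP3, RELL2, DIAPH1, the cell type markers with values and the marked promoter stretch were chosen after their values were seen. The members and lists were chosen with earlier results of these data known.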

Additional observations from a re-analysis of the deposited data

How the results depend on the processing

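PCDHGC3 was called higher under all 12 other fits. The number of clustered protocadherins called lower, 1, was 2 with no filter on low counts (PCDHGB4 added, 52 members tested), 0 with the replicate block (PCDHGB7 at -1.04, edgeR adjusted p = 0.0715) and 0 to 2 when 1 library was left out (PCDHGB4 added without EV replicate 1, and PCDHGA2 or PCDHGC5 in place of PCDHGB7 without HDAC8 replicate 1 or 3). The block changed no other call among the members and took the calls over all genes from 1218 to 1098. Among the regulators, non-clustered protocadherins and flanking genes, 3 higher and 2 lower calls became 10 and 9 with no fold threshold, the lower calls were 1 where each library had to hold 10 counts or more, and they were 1 to 2 when 1 library was left out. The partners went from 1 higher and 0 lower to 5 and 1 with no fold threshold, and had 0 to 1 lower calls when 1 library was left out (1 without HDAC8 replicate 1). Over all genes, 659 higher and 559 lower became 1790 and 1891 with no fold threshold. The log2 ratio of the summed gamma level, 0.52, was -0.14 without the C-type isoforms and -0.14 without PCDHGC3 alone, the latter chosen after seeing the data. Since these leave out PCDHGC3, the change follows from their construction. Values near 0 that were not called changed sign when 1 library was left out: CTCF ranged from -0.016 to 0.12, HDAC8 from -0.16 to 0.080, SMC3 from -0.11 to 0.095, PCDHB14 from -0.30 to 0.20, PCDHB6 from -0.10 to 0.12, PCDHGA3 from -0.15 to 0.66 and PCDHGB5 from -0.45 to 0.026. The cause was not tested.

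Same-numbered libraries had correlations of -0.0418, -0.107 and -0.0835 of their deviations from group means across genes, none the highest for its library, so the numbers were not taken as pairs. The depth limits statements on alpha and beta genes, most of which held too few counts to be tested.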
